A study of Mus musculus with 17 samples.

Results

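The 7 Serpina3 genes described here, Serpina3c, Serpina3f, Serpina3g, Serpina3h, Serpina3i, Serpina3m and Serpina3n, lie in a cluster of related serine protease inhibitor genes on mouse chromosome 12, and they were taken by name from the 55335 genes counted in every library. They were selected on their levels in these same libraries, across cell types and genotypes, so their levels, fold changes and calls, and tallies of their p-values, are given as a description that supports nothing, and single p-values are given only for other genes. RNA was sequenced in 17 libraries from 2 skeletal cell types of the long bones: skeletal stromal/stem cells (SSCs), sorted as CD45-TER119-CD31- cells positive for Sca-1, CD51 and PDGFRα, and osteoprogenitor cells (OPCs), sorted in the same gate as Sca-1- and CD51+ cells positive or negative for PDGFRα. Each cell type was taken from wild-type mice (Cxcr4+/+, here WT), from mice with 1 copy (+/1013) or from mice with 2 copies (1013/1013) of the 1013 allele. That allele is a knock-in in the endogenous Cxcr4 gene that truncates the tail of the chemokine receptor and makes it signal in excess, as in WHIM syndrome; it is present in every cell of the animal, so no comparison isolates a change in the sorted cells themselves. There were 3 libraries per group and 2 for 1013/1013 SSCs. Every library was a pool of 3000 cells from 3 mice, so the spread between libraries is the spread between pools. The mice of the study were female littermates, matched for age at 8 to 12 weeks. The series asks how the gain-of-function allele affects the molecular identity of both cell types.

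Serpins inhibit proteases by offering a flexible loop as bait: the protease cuts the loop, stays covalently bound and is dragged across the inhibitor, which inactivates both. The human genome has a single SERPINA3 gene, the acute phase protein alpha-1-antichymotrypsin, whereas the mouse has a cluster of copies that differ mainly in the loop and so in the protease they meet. Serpina3n is a secreted inhibitor of granzyme B and leukocyte elastase that is induced in inflammation and by glucocorticoids. Serpina3g, also called Spi2A, stays inside the cell, inhibits cysteine cathepsins and is best known from activated lymphocytes and macrophages. In bone, stromal cells release serpins into a marrow rich in neutrophil and osteoclast proteases.

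On the GRCm38 assembly (mm10), Serpina3c lies on the minus strand at positions 104146382 to 104153870 of chromosome 12. The other members lie on the plus strand, Serpina3f at 104214544 to 104221129, Serpina3g at 104236245 to 104241939, Serpina3h at 104247905 to 104253669, Serpina3i at 104263122 to 104269372, Serpina3m at 104338486 to 104394257 and Serpina3n at 104406729 to 104414329. Serpina3h is annotated as a transcribed pseudogene and the others as protein-coding genes. The upstream sequences of Serpina3c and Serpina3n are shown because the levels of these members had the highest correlation across the libraries, and those of Serpina3f, Serpina3g and Serpina3i because they hold a STAT motif that the first pair lacks. Each line gives the 150 bases before the RefSeq start site on GRCm38.p6, 5′ to 3′ on the gene's own strand, and capitals mark the STAT motif TTCNNNGAA and the glucocorticoid receptor core ACANNNTGT.
Serpina3c, chr12:104153873-104154022, minus strand: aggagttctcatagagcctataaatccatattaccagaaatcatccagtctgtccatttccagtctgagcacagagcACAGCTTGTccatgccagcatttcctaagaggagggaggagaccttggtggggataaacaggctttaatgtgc
Serpina3n, chr12:104406558-104406707, plus strand: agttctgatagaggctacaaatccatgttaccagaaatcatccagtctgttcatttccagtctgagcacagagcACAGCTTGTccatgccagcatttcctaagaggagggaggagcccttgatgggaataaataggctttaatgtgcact
Serpina3f, chr12:104214394-104214543, plus strand: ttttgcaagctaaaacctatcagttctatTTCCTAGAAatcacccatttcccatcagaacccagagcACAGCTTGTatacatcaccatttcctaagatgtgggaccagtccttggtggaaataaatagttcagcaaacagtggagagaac
Serpina3g, chr12:104235997-104236146, plus strand: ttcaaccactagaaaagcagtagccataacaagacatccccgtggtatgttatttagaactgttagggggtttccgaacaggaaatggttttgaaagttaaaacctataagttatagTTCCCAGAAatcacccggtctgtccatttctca
Serpina3i, chr12:104262972-104263121, plus strand: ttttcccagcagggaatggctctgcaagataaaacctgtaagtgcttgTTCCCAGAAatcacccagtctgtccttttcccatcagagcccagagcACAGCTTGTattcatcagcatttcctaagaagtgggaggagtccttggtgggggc

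RefSeq promoters were found for 5 of the 7 members; Serpina3h and Serpina3m are named only. Both strands of the 250 bases upstream were searched. The STAT motif TTCNNNGAA was present in Serpina3f, Serpina3g and Serpina3i and in 7.02% of all 32851 promoters. At the aligned position Serpina3c and Serpina3n carry C3A relative to the TTCCCAGAA of Serpina3i, counted from 1 at the first letter of the motif, and so hold no match to these letters. Serpina3f carries C5T, inside the spacer. A second RefSeq start of Serpina3f, at 104214633, lies downstream of the one used here, and its window holds the same motif matches further upstream, with ACAGCTTGT at 172 bases. The core ACANNNTGT, present in 5.84% of all promoters, was found as ACAGCTTGT in Serpina3c, Serpina3f, Serpina3i and Serpina3n, starting 73, 83, 55 and 76 bases upstream of the start site, and not in the window of Serpina3g. The RefSeq start of Serpina3g, 104236147, lies upstream of its gene start given above. Its STAT letters start 33 bases before that start, against 102 in Serpina3i. The place that matches the core of Serpina3i would thus lie past the window of Serpina3g and was not searched. The C/EBP letters TTGCNNAA, held by 9.56% of all promoters, occurred in Serpina3f alone, with 2 matches. The NF-kB letters GGGANTTCC (1.43% of all promoters) and the interferon response letters, GAAA and GAAA with any 2 bases between them (2.98%), occurred in none of the 5 windows. None of these motifs was searched beyond the window, and a match is a string of letters, not a bound site.

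The 250 bases upstream of Serpina3c and Serpina3n were 92.7% identical over 247 aligned bases. Serpina3f was 78.6% identical to Serpina3i and 78.4% to Serpina3g, over 220 and 153 aligned bases. The window of the second Serpina3f start was 84.2% and 84.4% identical to them, over 133 and 64 aligned bases. The transcripts gave another order. Serpina3c was closest to Serpina3m, at 89.4% identity, followed by Serpina3f with Serpina3g at 88.4% and Serpina3h with Serpina3i at 88.1%, while Serpina3c and Serpina3n shared 80.3%. Serpina3m, which lies beside Serpina3n, had no RefSeq promoter, so its upstream sequence could not be compared with that of Serpina3c. Among the 5 members with a promoter, Serpina3c was closest to Serpina3n in upstream sequence and in transcript.

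Since the copies are so similar, some reads cannot be placed. Of all 50-base windows of the longest transcript, those found exactly in another gene made up 4.25% in Serpina3c, 6.9% in Serpina3n and 10.7% in Serpina3f. The share was 15.4% in Serpina3i, 16% in Serpina3g, 19.1% in Serpina3m and 24.4% in Serpina3h. Windows of 100 bases were shared less, from 0% in Serpina3c and 0.204% in Serpina3n up to 6.09% in Serpina3m, whose shared windows lay in Serpina3k. Reads from such windows may be lost or counted for a neighbour, so the values of Serpina3h, Serpina3i, Serpina3g, Serpina3f and Serpina3m are less certain than those of Serpina3c and Serpina3n. Serpina3k itself had at most 1 count in any library, and shares 60 exonic bases with Serpina3m.

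**Figure D1:**
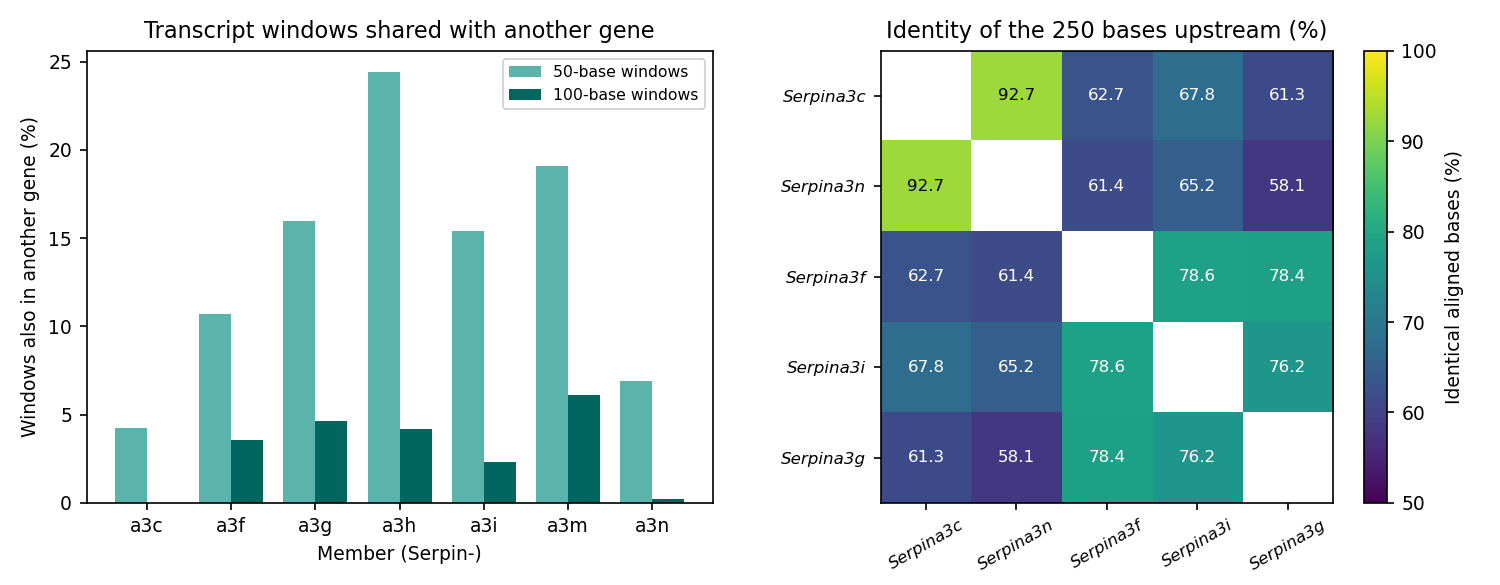
Left: percent of the 50-base (light) and 100-base (dark) windows of each member's transcript that occur exactly in another gene, as bars. Right: percent of identical aligned bases over the 250 bases upstream for each pair of the 5 members with a RefSeq promoter. Serpina3h has the largest share of ambiguous 50-base windows, at 24.4%, and the pair of Serpina3c and Serpina3n stands out at 92.7%.

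Libraries held 64099849 to 92683497 counts on genes in OPCs and 44217695 to 50509592 in SSCs. Levels are counts per 1000000 counts (CPM) on TMM-scaled library sizes, where TMM is edgeR's correction for composition, and a gene at 0 may reach 3 counts by chance, which is 0.0407 to 0.0628 CPM depending on the library. Sca-1 transcript (Ly6a) separated the cell types, at 0.568 to 12.4 CPM in OPCs and 386 to 1450 CPM in SSCs. The 18 leukocyte markers summed to 26325 CPM in WT OPC replicate 3, 18337 CPM in 1013/1013 OPC replicate 2 and 10229 CPM in WT SSC replicate 3, against at most 1024 CPM in the other 14, although CD45+ cells were gated out. WT SSCs also differed from mutant SSCs in library measures: reads outside genes made up 3.68 to 4.15% in WT and 1.504 to 2.69% in mutants, and 21449 to 22599 against 15748 to 19227 genes had a count. In SSCs, genotype and these library measures cannot be told apart. The 1013 allele is counted under the same gene as normal Cxcr4, so the counts do not check the genotype labels. Liver is the main source of this family in the body. Of 6 hepatocyte markers, Ttr and Fgb were at 0 in all 17 libraries, Alb had counts in 3 and Apoa1 in 6, both under 1 CPM. Trf, at 42.9 to 492 CPM, and Serpina1a, at up to 151 CPM, had counts in every library, so 1 to 4 of the 6 were above 3 counts in each, and the part of liver RNA in the members' values was not tested.

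The family was more abundant in SSCs than in OPCs. Per kilobase of exon, its 7 members summed to 2.55 to 11.2 CPM/kb in OPCs and 42.1 to 234 CPM/kb in SSCs, with no overlap. Serpina3n made up 82.8 to 86.5% of that sum in 7 of the 8 SSC libraries and 61.3% in WT SSC replicate 3. In OPCs its share was 26.7 to 79.6%, and Serpina3g took up to 58.1%. Mean levels per kilobase in WT SSCs were 50.2 CPM/kb for Serpina3n, 5.94 CPM/kb for Serpina3g, 3.82 CPM/kb for Serpina3c and 2.77 CPM/kb for Serpina3m, that of Serpina3g resting on WT replicate 3. Most of the family's transcript in SSCs thus came from 1 gene.

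Serpina3n, the secreted inhibitor of granzyme B, was present in every library. In OPCs it stood at 6.60, 2.89 and 1.78 CPM in the WT pools, at 17.6, 2.74 and 3.87 CPM in the +/1013 pools and at 11.1, 6.64 and 4.53 CPM in the 1013/1013 pools. The genotypes overlapped in OPCs, and 1 pool, +/1013 replicate 1, was the highest. WT SSCs had 168, 74.0 and 68.4 CPM. The +/1013 SSCs had 230, 400.498 and 249 CPM, and the 2 1013/1013 SSC libraries had 246 and 328 CPM. Every mutant SSC library was above every WT SSC library, and both genotypes covered the same range.

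Group means of Serpina3n were 103.5 ± 56.0 CPM in WT SSCs (SD, n = 3), 293 ± 93.4 CPM in +/1013 SSCs (n = 3) and 287 ± 58.1 CPM in 1013/1013 SSCs (n = 2). The difference from WT in log2 was 1.49 (SE 0.395) for +/1013, or 2.80-fold, and 1.48 (SE 0.427) for 1013/1013, or 2.79-fold. Between the mutant genotypes it was -0.00 (SE 0.432), so a second copy of the allele came with no further difference that these pools could show. In OPCs the means were 3.76 ± 2.52, 8.06 ± 8.26 and 7.43 ± 3.37 CPM (SD, n = 3 each) and the log2 differences from WT were 1.10 (SE 0.792) and 0.98 (SE 0.790), with overlapping libraries. That for +/1013 OPCs went to -0.18 without +/1013 replicate 1. Against OPCs of the same genotype, Serpina3n was 27.5-fold higher in WT SSCs, 36.3-fold higher in +/1013 SSCs and 38.6-fold higher in 1013/1013 SSCs (log2 4.78, 5.18 and 5.27, SE 0.763, 0.776 and 0.802). In the order of levels, the OPC groups were lowest and did not separate from each other beyond their spread, WT SSCs came next, and the mutant SSCs, which did not separate from each other either, were highest.

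Serpina3c, next to Serpina3n in mutant SSCs by level per kilobase, had no count in any of the 3 WT OPC libraries at 65052411 to 85313745 counts on genes. The +/1013 OPC libraries had 50, 49 and 104 counts and the 1013/1013 OPC libraries 137, 78 and 180 counts. Expressed as levels, these were 0.768, 0.951 and 1.47 CPM and 1.90, 1.23 and 3.29 CPM, which is at least 20.97-fold and at least 42.16-fold above the 3-count limit per WT library. All 6 mutant OPC libraries held the transcript and no WT one did. WT SSCs had 12.6, 8.28 and 4.46 CPM, +/1013 SSCs 29.9, 34.5 and 34.6 CPM, and 1013/1013 SSCs 41.4 and 26.8 CPM. The mutant SSC libraries again lay above all WT ones and overlapped each other.

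The means of Serpina3c in SSCs were 8.46 ± 4.09 CPM in WT (SD, n = 3), 32.98 ± 2.70 CPM in +/1013 (n = 3) and 34.1 ± 10.3 CPM in 1013/1013 (n = 2). The log2 difference from WT was 1.95 (SE 0.387, 3.86-fold) for +/1013 and 2.04 (SE 0.415, 4.10-fold) for 1013/1013. In OPCs the 1013/1013 level was 2.14 ± 1.05 CPM and the +/1013 level 1.06 ± 0.366 CPM, a log2 difference of 1.01 (SE 0.752), with overlapping libraries. Serpina3c was at least 166.6-fold higher in WT SSCs than in WT OPCs, 30.9-fold higher in +/1013 SSCs (log2 4.95, SE 0.527) and 15.9-fold higher in 1013/1013 SSCs (log2 3.99, SE 0.522). The gap between cell types thus narrowed from WT to 1013/1013 while the mean level was higher with the allele in both. The fitted difference between the cell types in the effect of the allele was -7.05 for +/1013 and -8.01 for 1013/1013 in log2. Both rest on a WT OPC group at 0 and depend on the prior count of the fit, so they are not bounds. They were called lower, where 0.0148% and 0.0346% of all genes tested were, and the calls held in 2 and 17 of 24 alternatives. Dropping the fold threshold, where a call cannot be lost, is among these alternatives. For +/1013 the only other that kept the call was DESeq2. The +/1013 call was lost without any 1 of the 17 libraries.

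Serpina3m was absent from most OPC libraries and uneven in SSCs. WT and +/1013 OPCs had 0 counts in all 6 libraries, and 1013/1013 OPCs had 0, 31 and 27 counts. WT SSCs stood at 8.87, 2.53 and 2.88 CPM, +/1013 SSCs at 9.97, 34.6 and 12.2 CPM, and 1013/1013 SSCs at 0 and 19.5 CPM. The +/1013 libraries were all above the WT ones, and the 2 libraries of 1013/1013 SSCs lay on either side of them. 1013/1013 SSC replicate 1, with no Serpina3m count, also had the fewest genes with a count, 15748, and no count of Serpina1e from the same chromosome 12 region, which had 1362 in the other library of the group. The log2 difference from WT was 1.98 (SE 1.6004) for +/1013 and 1.02 (SE 1.70) for 1013/1013, smaller than or close to their errors, and the latter turned to -11.2 without 1013/1013 replicate 2. The level was at least 93.77-fold higher in WT SSCs and at least 387-fold higher in +/1013 SSCs than in the OPCs of the same genotype.

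**Figure D2:**
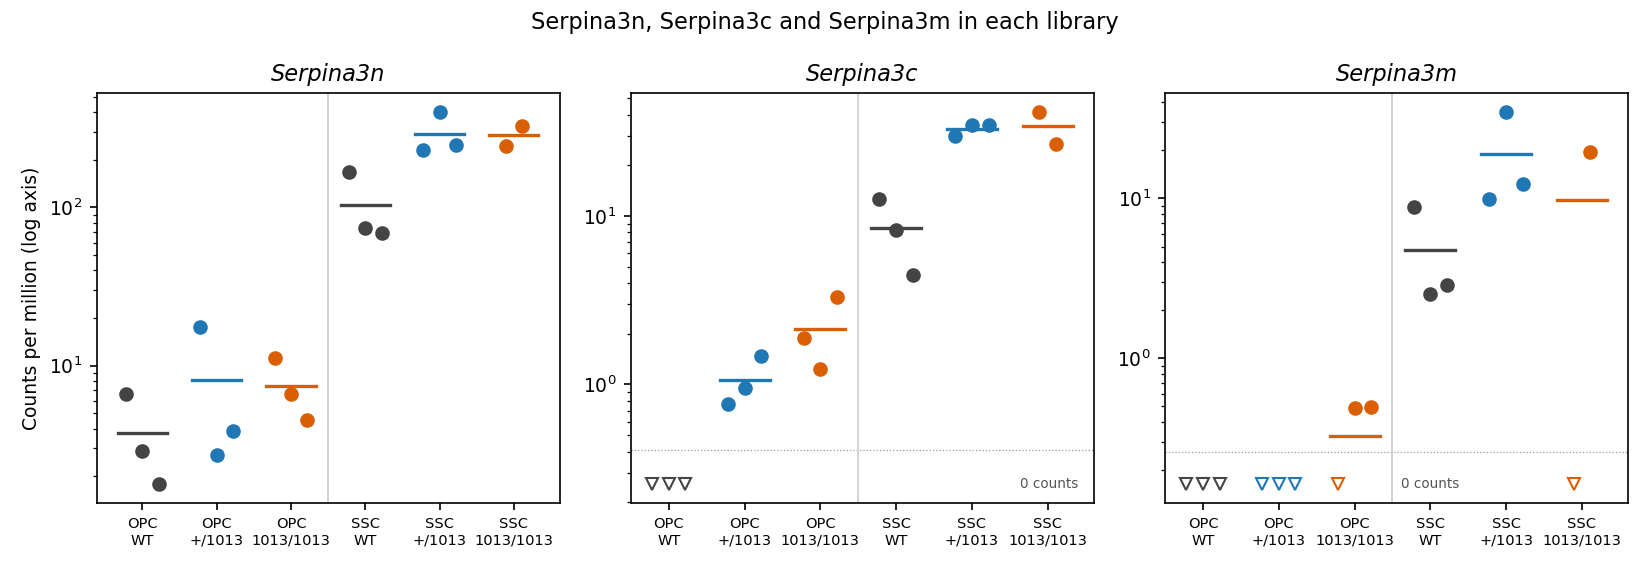
Serpina3n, Serpina3c and Serpina3m in CPM on a log axis by cell type and genotype, with 1 point per library, a bar at each group mean and open triangles below the dotted line for libraries with 0 counts. SSCs lie above OPCs for Serpina3n in every library, and the WT OPC libraries of Serpina3c are all at 0.

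Calls required at least 1.5-fold and an adjusted p (Benjamini-Hochberg, edgeR's quasi-likelihood test) under 0.05. Between SSCs and OPCs of the same genotype, called members were Serpina3c, Serpina3m and Serpina3n in WT and in +/1013, and Serpina3c and Serpina3n in 1013/1013, all higher in SSCs. These are 3, 3 and 2 of 7 members, where 5.55, 6.44 and 6.94% of all genes tested were called higher. All 7 passed the filter on low counts in that fit. Members whose SSC libraries all lay above all OPC libraries numbered 4 in WT, 4 in +/1013 and 3 in 1013/1013, where 22.2, 18.1 and 18.4% of all genes did so. Beside the called members these were Serpina3h in WT and +/1013 and Serpina3i in 1013/1013, against 0 counts in OPCs. Their SSC means were low, at 0.0556, 0.272 and 0.0928 CPM. That of Serpina3h in WT was near the 3-count limit in WT OPCs, 0.0507 CPM. The call of Serpina3m in WT was lost without any 1 of the WT or +/1013 SSC libraries, the WT OPC libraries or 1013/1013 OPC replicates 2 and 3. Its call in +/1013 was lost without any 1 of the +/1013 OPC libraries or +/1013 SSC replicate 2. The calls of Serpina3c and Serpina3n held without any single library. With the replicate number as a block, 2 members were called in WT in place of 3, Serpina3m no longer among them.

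Between genotypes of SSCs, edgeR called 0 members in each comparison. In +/1013 against WT it called 0.0736% of the 17659 genes tested, and 2 of the 5 members that passed the filter had an unadjusted p under 0.05, as did 3061 of all genes. In 1013/1013 against WT it called 0% of genes, again with 2 of 5 members and 3224 of all genes under 0.05. DESeq2 called 2 members in each, Serpina3c and Serpina3n, among 1302 and 1708 genes. The members with no overlap between mutant and WT were Serpina3c, Serpina3m and Serpina3n for +/1013, where 15% of genes tested lay wholly higher. For 1013/1013 they were Serpina3c and Serpina3n, where 16.4% of genes tested did, and Serpina3i. Serpina3i, at means of 0.0928 against 0.00516 CPM, did not pass the filter, so that share does not cover it. In 1013/1013 against +/1013, 0 members and 0% of genes were called, by DESeq2 also 0 members, and none of the 5 members but 977 of all genes had an unadjusted p under 0.05. Both mutant comparisons use the same 3 WT libraries, so their likeness is no second observation.

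For scale, the median log2 difference of all genes tested in SSCs was -0.11 for +/1013 and -0.23 for 1013/1013 against WT, and 95% of genes were below 1.16 and 1.499. Serpina3c, at 1.95 and 2.04, lay above 98.5% and 97.3% of genes, and Serpina3n, at 1.49 and 1.48, above 97.2% and 94.9%. In OPCs edgeR called 0 of the 4 members tested in +/1013 against WT (0% of 16207 genes called) and 0 in 1013/1013 against WT (0.00617% called). In both, 1 member, Serpina3c, had an unadjusted p under 0.05 (331 and 548 of all genes did) and was called by DESeq2, and Serpina3c alone lay wholly above WT, as 2.82% and 3.98% of genes did. In 1013/1013 against +/1013 OPCs, 0 members were called by either tool, with 0% of genes called, and no member but 513 of all genes had an unadjusted p under 0.05.

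**Figure D3:**
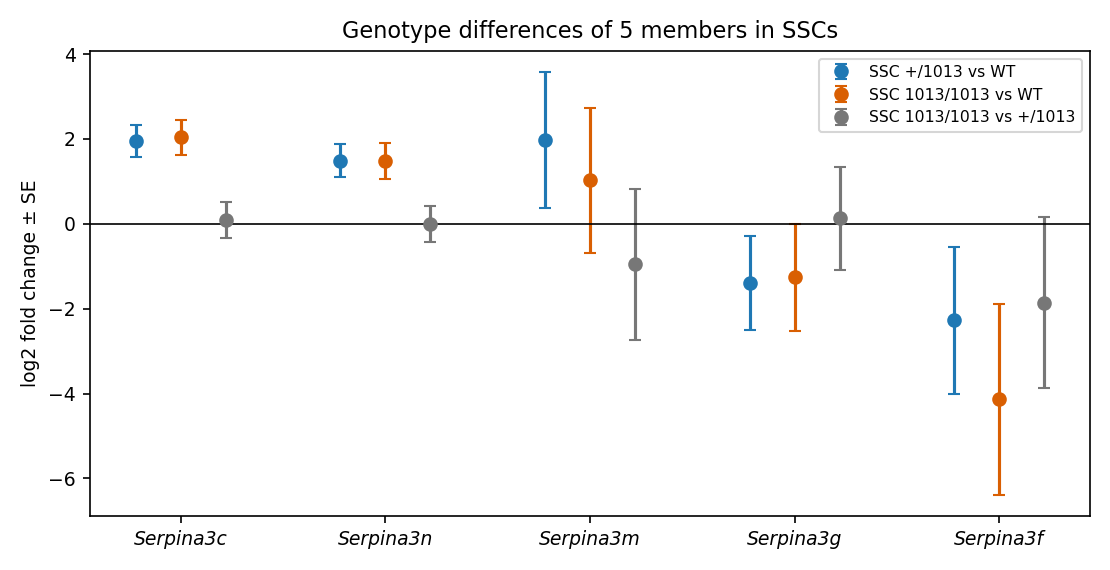
Log2 fold changes between SSC genotypes with their standard errors (vertical axis) for the 5 members that passed the filter, with blue for +/1013 against WT, orange for 1013/1013 against WT and grey for 1013/1013 against +/1013. Serpina3c, at 1.95 and 2.04, and Serpina3n, at 1.49 and 1.48, lie above 0 in both comparisons with WT and near 0 between the mutants, and Serpina3m, Serpina3g and Serpina3f have wide errors.

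Marker transcripts of the SSC pools differed by genotype as well. The sorting markers Ly6a, Itgav and Pdgfra summed to 804 to 1049 CPM in WT SSCs and 1205 to 1942 CPM in mutant SSCs. The markers did not move together: Ly6a was at 386 to 599 CPM in WT and 837 to 1450 CPM in mutants, Itgav was lower in mutants, at 49.5 to 59.7 against 17.8 to 35.8 CPM, and Pdgfra overlapped, at 339 to 414 and 341 to 522 CPM. The 6 stromal and osteoblast markers, led by type I collagen, summed to 15986 to 20836 CPM in WT SSCs and 4984 to 10282 CPM in mutants. Divided by the sorting marker sum, most of which is Ly6a in mutants, Serpina3n was 0.160, 0.0872 and 0.0851 in WT, 0.130, 0.310 and 0.161 in +/1013 and 0.126 and 0.272 in 1013/1013 SSCs, so that the genotypes overlapped. Divided in the same way, Serpina3c was 0.0120, 0.00975 and 0.00555 in WT SSCs and 0.0169 to 0.0267 in the 5 mutant libraries, which did not overlap. In pools of sorted cells, more cells of a type and more RNA per cell cannot be told apart.

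Ly6a was low but variable in OPCs. The libraries with the most Ly6a, 1013/1013 replicate 1 at 12.4 CPM and WT replicate 1 at 6.67 CPM, had 11.1 and 6.60 CPM of Serpina3n. Serpina3n was highest, at 17.6 CPM, with 6.11 CPM of Ly6a in +/1013 replicate 1. WT replicate 3 had 5.23 CPM of Ly6a and only 1.78 CPM of Serpina3n. Serpina3c was at 0 in WT replicates 1 and 3, with Ly6a at 6.67 and 5.23 CPM, and at 3.29 CPM in 1013/1013 replicate 3, with Ly6a at 1.08 CPM. The part of Sca-1+ cells in the OPC values was not tested.

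Serpina3g, the intracellular cathepsin inhibitor, was found in all 17 libraries, and SSC and OPC libraries overlapped in every genotype. Against OPCs of the same genotype the log2 difference was 2.47 (SE 1.19) in WT, 0.24 (SE 1.13) in +/1013 and 0.20 (SE 1.25) in 1013/1013 SSCs. With single libraries left out it ran from 0.31 to 2.98, from -0.04 to 0.62 and from -0.93 to 2.72, so single pools set its size. OPCs had 1.79, 1.64 and 3.35 CPM in WT, 4.01, 6.08 and 2.38 CPM in +/1013 and 1.10, 11.96 and 0.511 CPM in 1013/1013. SSCs had 3.73, 1.87 and 31.9 CPM in WT, 6.34, 6.48 and 1.92 CPM in +/1013 and 8.03 and 2.36 CPM in 1013/1013. Both high values, 31.9 CPM in WT SSC replicate 3 and 11.96 CPM in 1013/1013 OPC replicate 2, belong to libraries rich in leukocyte transcripts. No pair of groups was separated. The log2 difference from WT in SSCs was -1.39 (SE 1.11) for +/1013 and -1.26 (SE 1.27) for 1013/1013, and without WT SSC replicate 3 the signs turned, to 0.80 and 0.93. In 1013/1013 against WT OPCs the value of 0.99 (SE 1.06) for Serpina3g turned to -1.51 without 1013/1013 replicate 2.

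The third leukocyte-rich library, WT OPC replicate 3, had the largest leukocyte sum but 3.35 CPM of Serpina3g. The 3 libraries differed in which leukocyte markers they held. All 18 were above 3 counts in WT SSC replicate 3 and 1013/1013 OPC replicate 2, T and B cell genes included, whereas Cd79b, Cd3e and Trbc2 were at 0 in WT OPC replicate 3. Ptprc, which encodes CD45, was at 120 and 118 CPM in those libraries and at 52.8 CPM in the third. In the other 14 libraries Ptprc was at most 9.20 CPM, and Serpina3g ran from 0.511 to 8.03 CPM. The part of leukocytes in the Serpina3g values was not tested.

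Serpina3f was the closest to Serpina3g in transcript sequence and was highest in the same SSC library and the same OPC library. It had 4, 52 and 32 counts in WT OPCs, 60, 38 and 62 in +/1013 OPCs and 1, 114 and 0 in 1013/1013 OPCs. SSCs had 139, 1 and 295 counts in WT, 3, 20 and 58 in +/1013 and 2 and 12 in 1013/1013. The highest level, 4.67 CPM, was in WT SSC replicate 3, as for Serpina3g, and 1.80 CPM in 1013/1013 OPC replicate 2 was the highest of the OPCs. Between these lay WT SSC replicate 1, with 139 counts, which was not leukocyte-rich (leukocyte markers summed to 1024 CPM). In SSCs the log2 difference of Serpina3f from WT was -2.27 (SE 1.73) and -4.13 (SE 2.25), with overlapping libraries. In 1013/1013 OPCs it went from 0.19 to -5.83 without replicate 2, so that 1 pool set its direction.

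**Figure D4:**
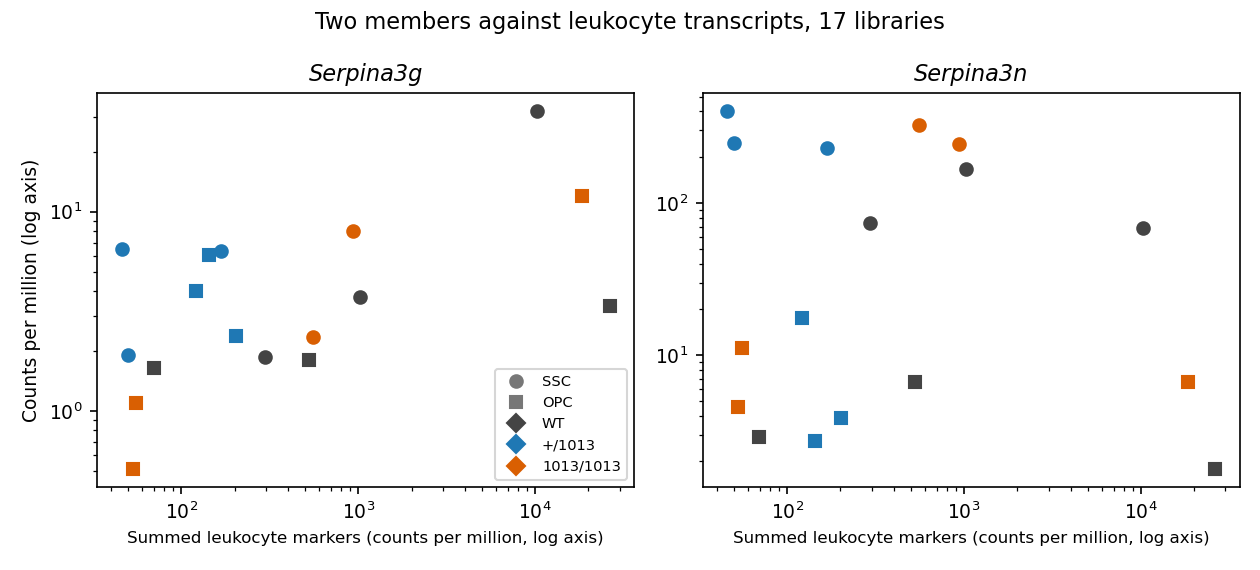
Serpina3g (left) and Serpina3n (right) in CPM against the summed CPM of 18 leukocyte markers, all axes logarithmic, with 1 point per library, circles for SSCs, squares for OPCs and colours for genotypes. WT SSC replicate 3 and 1013/1013 OPC replicate 2 have the highest Serpina3g, at 31.9 and 11.96 CPM, while Serpina3n separates by cell type, and in WT SSC replicate 3 and WT OPC replicate 3 it is the lowest of its cell type, at 68.4 and 1.78 CPM.

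Serpina3h, the pseudogene, had 0 counts in all 9 OPC libraries. In SSCs it had 1, 8 and 2 counts in WT, 33, 4 and 10 in +/1013 and 0 and 3 in 1013/1013. The highest level was 0.565 CPM in +/1013 replicate 1, and WT and 1013/1013 libraries were at or under 0.120 CPM. The 1013/1013 SSC libraries lay wholly below the +/1013 ones, at 0 and 3 against 4 to 33 counts. Of the genes tested 9.33% lay wholly lower, but Serpina3h did not pass the filter in SSCs, so that share does not cover it. In WT SSCs the mean was at the detection limit, so no fold is given against OPCs. In +/1013 SSCs it was at least 5.56-fold above the limit in OPCs.

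Serpina3i also had 0 counts in all OPC libraries, and in SSCs it was a signal of a single pool. +/1013 SSC replicate 2 had 131 counts, or 2.51 CPM. The other 7 SSC libraries had 0 to 8 counts, with 1, 0 and 0 in WT, 0 and 0 in the remaining +/1013 pools and 2 and 8 in 1013/1013. This +/1013 pool also had the highest level of Serpina3n, 400.498 CPM, and of Serpina3m, 34.6 CPM. Serpina3h, which shares the most 50-base windows with Serpina3i, had only 4 counts there.

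**Figure D5:**
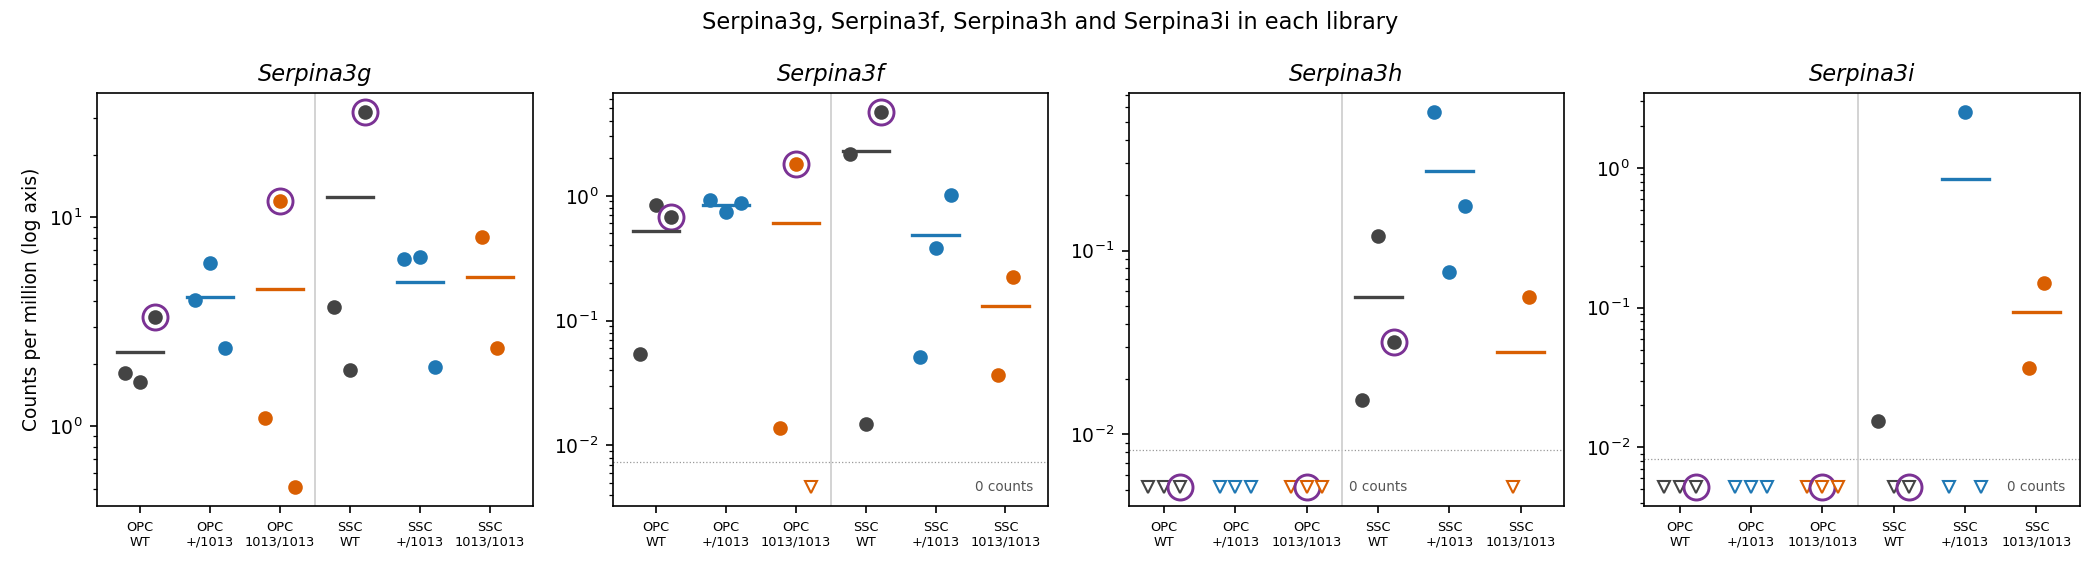
Serpina3g, Serpina3f, Serpina3h and Serpina3i in CPM on a log axis by cell type and genotype, with 1 point per library, a bar at each group mean above the dotted line, purple rings for the 3 leukocyte-rich libraries and open triangles below the dotted line for libraries with 0 counts. Serpina3h and Serpina3i are at 0 in all 9 OPC libraries, and the mean of Serpina3g in WT SSCs is set by 1 ringed library.

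Across the 17 libraries, on log2(CPM + 1), Serpina3c and Serpina3n had the highest correlation of the members with a mean of at least 1 CPM (Pearson r = 0.940, and 0.647 after each cell type's mean was subtracted). The values were 0.830 and 0.378 for Serpina3m with Serpina3n, and 0.785 and 0.258 for Serpina3c with Serpina3m. Serpina3g correlated with the other 3 at 0.145 to 0.265, and negatively within cell types. These are descriptions over libraries that share cell type, genotype and depth, so no p is given. Of the 8282 genes compared, the 3 most like Serpina3n were Igfbp6, Msx1 and Clec3b (r = 0.985, 0.984 and 0.982), and within cell types Cebpd, Gstt3 and Lrpap1 (0.864, 0.862 and 0.854). For Serpina3c they were S100a10, Bmper and Polr2c (0.973, 0.965 and 0.956), and within cell types Wdfy1, S100a10 and Mrps5 (0.883, 0.859 and 0.852). For Serpina3m they were Tmem43, Psmd11 and Osbpl9 (0.954, 0.949 and 0.943), and within cell types Agt, Nxt2 and Tmem43 (0.884, 0.878 and 0.867). For Serpina3g they were Slc9a3r1, Srgn and Tnfaip8 (0.815, 0.804 and 0.803), and within cell types Gimap6, Slc9a3r1 and Ighm (0.831, 0.825 and 0.815), of which Srgn, Gimap6 and Ighm are known from leukocytes.

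Of 21 other Serpina genes of chromosome 12, 7 could be tested between cell types, and in WT edgeR called 0 of them (2 at an unadjusted p under 0.05, 1 by DESeq2). It called 2308 of all 20238 genes there. Serpina3k and Serpina3j had at most 1 count in any library, Serpina3b at most 13 and Serpina3a none. Serpina1d, a copy of alpha-1-antitrypsin, was at 334 CPM in WT OPCs and 29.9 CPM in WT SSCs (log2 -3.48, SE 1.84, edgeR adjusted p = 0.242). Serpina1e was higher in +/1013 SSCs than in +/1013 OPCs, at 20.6 against 0.0480 CPM (log2 8.62, SE 2.21, edgeR adjusted p = 0.0208), and Serpina1c was lower, at 0 against 0.726 CPM, a fitted log2 of -8.47 (edgeR adjusted p = 0.0357). The call of Serpina1e was lost without any 1 of the +/1013 OPC libraries (adjusted p up to 0.0765), and that of Serpina1c without +/1013 OPC replicate 2 or 3 or any 1 of the +/1013 SSC libraries (up to 0.105). Between genotypes edgeR called 0 of the 6 tested in OPCs and 0 of the 5 tested in SSCs. In SSCs no unadjusted p was under 0.05. In OPCs 2 were for +/1013 against WT, with 1 called by DESeq2, and 2 for 1013/1013 against +/1013, with 0 called by DESeq2.

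Of 20 serpins of other clades, edgeR called 5 between WT SSCs and WT OPCs out of 17 tested, where it called 2308 of all 20238 genes. Serpinb6a, an intracellular inhibitor of cathepsin G, was higher in SSCs in all genotypes (log2 1.00, 2.13 and 2.57 in WT, +/1013 and 1013/1013), as was Serping1, the C1 inhibitor of complement (2.27, 3.15 and 3.77). Serpinb8 followed (2.39, 2.26 and 1.90). Serpinh1, the collagen chaperone, was lower in SSCs (-2.60, -2.85 and -2.90), and Serpinf1, or PEDF, was called lower in WT alone (-1.92). The edgeR adjusted p of these calls was at most 0.0404. That of Serpinb8 in 1013/1013 held in 12 of 25 alternatives: without any 1 SSC library except 1013/1013 replicate 1, or any 1 of the 1013/1013 OPC libraries, it was lost, and its log2 value fell to as little as 0.63. The WT call was lost for Serping1 without WT OPC replicate 2 or 3 or any 1 WT SSC library and for Serpinb6a without WT OPC replicate 2 or WT SSC replicate 1, with adjusted p up to 0.166 and 0.0796 over all alternatives. None of the 16 tested was called between SSC genotypes by edgeR, with 4 and 3 at an unadjusted p under 0.05 for +/1013 and 1013/1013 and 3 called by DESeq2 in each. Serping1 was at 2005 CPM in WT, 5049 CPM in +/1013 and 4027 CPM in 1013/1013 SSCs (log2 1.31 and 1.02 against WT, adjusted p = 0.0932 and 0.132). Serpinf1 differed by 0.95 and 0.93 (adjusted p = 0.158 and 0.167) and Serpine2, which inhibits thrombin and plasminogen activators, by 0.30 and 0.13 (0.753 and 0.871).

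Of 18 proteases that the family or its human counterpart is known to inhibit, or that act with them, 13 were tested between cell types. In SSCs against OPCs edgeR called 1 higher and 1 lower in WT, 4 and 1 in +/1013 and 4 and 0 in 1013/1013. Of all 20238 genes tested, 5.55, 6.44 and 6.94% were called higher and 1185, 1218 and 1238 genes lower. Ctsl, a lysosomal cysteine protease, was higher in SSCs than in OPCs by a log2 of 1.65 in +/1013 (edgeR adjusted p = 0.000240) and 2.30 in 1013/1013 (3.32e-05), and Ctsb by 0.96 and 0.99. Both kept these calls under all 25 alternatives. Ctsl stood at 497, 1265 and 1374 CPM in WT, +/1013 and 1013/1013 SSCs and at 419, 404 and 279 CPM in OPCs. The effect of 1013/1013 on Ctsl differed between the cell types by 2.05 (SE 0.316, edgeR adjusted p = 0.0230), although the comparison within SSCs did not pass (log2 1.48, adjusted p = 0.0671). The plasminogen activators were higher in SSCs, Plat in all genotypes (1.58, 1.57 and 2.72) and Plau in +/1013 and 1013/1013 (3.20 and 4.99). Ctsh in WT (-1.60) and Mmp9 in +/1013 (-6.08) were lower. Single libraries ended the calls of Plat in WT (WT OPC replicate 2 or 3, WT SSC replicate 1 or 2), of Plat and Plau in +/1013 (+/1013 OPC replicate 2 or 3, +/1013 SSC replicate 2), of Ctsh (WT OPC replicate 3, any WT SSC library) and of Mmp9 (replicate 1 or 2 of +/1013 OPCs or SSCs). Over all alternatives the adjusted p reached 0.121 and 0.106 for Plat, 0.154 for Plau, 0.199 for Ctsh and 0.107 for Mmp9. Without +/1013 SSC replicate 2 the log2 value of Plau was 2.10. Between SSC genotypes 0 of 13 tested were called by edgeR, 6 and 5 had an unadjusted p under 0.05, and DESeq2 called 4 and 2. Ctsb had log2 differences of 0.54 and 0.51 (adjusted p = 0.208 and 0.245) and Ctsk, the collagenase of osteoclasts, of 0.48 and 0.55 (0.292 and 0.266).

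Interleukin-6 signals through STAT3 and is a known inducer of this family. Of 20 genes of the pathway, 18 tested, edgeR called 6 higher and 1 lower in WT SSCs, 4 and 2 in +/1013 and 4 and 1 in 1013/1013. Of all 20238 genes tested, 5.55, 6.44 and 6.94% were called higher and 1185, 1218 and 1238 genes lower. Il6 was at 420 CPM in +/1013 SSCs against 3.30 CPM in OPCs (log2 6.99, adjusted p = 0.00758) and at 420 against 11.6 CPM in 1013/1013 (5.17, 0.0282). Among receptors, Il11ra1 was higher in SSCs (1.68, 2.53 and 3.02) and Lifr lower (-2.60, -2.63 and -2.87). The Il6 call in 1013/1013 was lost without OPC 1013/1013 replicate 2 or 3 or SSC 1013/1013 replicate 2 (log2 2.73), with the replicate block and without the 3 leukocyte-rich libraries. The shared chain Il6st was higher in WT (1.29) and also called in 1013/1013 SSCs, and Jak1 was higher in all genotypes (0.94, 0.82 and 0.81). These calls, and that of Il11ra1 in WT, were each lost without some single library of the same genotype, and that of Jak1 in 1013/1013 also without +/1013 SSC replicate 2 or WT SSC replicate 1. Over all alternatives the adjusted p reached 0.139 and 0.174 for Il6st, 0.171, 0.0957 and 0.207 for Jak1 and 0.0890 for Il11ra1. Il6ra was also called higher in WT and +/1013 SSCs (2.36 and 2.68), Osmr and Stat3 higher in WT (2.30 and 0.82) and Pias3 lower in +/1013 (-0.99). Of 25 alternatives, Il6ra was called in 24 and 25, Osmr in 13, Stat3 in 19 and Pias3 in 9. Socs3, the feedback inhibitor that STAT3 induces, was not called in WT or +/1013 (0.66 and 0.69, edgeR adjusted p = 0.235 and 0.213). Within SSCs, Il6 went from 39.0 CPM in WT to 420 CPM in both mutant genotypes, in all libraries above WT, but the difference did not pass (log2 3.41 and 3.42, edgeR adjusted p = 0.174 for both). Socs3 was at 956, 1005 and 1002 CPM (log2 0.05 and 0.07). None was called between SSC genotypes by edgeR, with 5 and 3 at an unadjusted p under 0.05 and 4 and 2 called by DESeq2.

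Acute phase genes and other targets of STAT3, C/EBP or NF-kB gave 1, 2 and 4 calls higher in SSCs out of 22 tested, and 0 lower. Of all genes tested, 5.55, 6.44 and 6.94% were called higher. Steap4 was called in all genotypes (log2 1.57, 1.96 and 2.29), C3 in +/1013 (8.22), and Nfkbia, Cxcl1 and Mt1 in 1013/1013 (2.02, 4.58 and 3.68). Except for Steap4 in +/1013 and 1013/1013, each was lost without some single library: adjusted p reached 0.111 for Steap4 in WT, 0.0685 for C3, 0.332 for Nfkbia, whose log2 value was 1.01 without 1013/1013 SSC replicate 2, 0.0629 for Cxcl1 and 0.107 for Mt1. Between SSC genotypes edgeR called none of 21, with 8 and 6 at an unadjusted p under 0.05 and 5 called by DESeq2 in each. The 3 most abundant, C3, Nfkbia and Mt1, had log2 values of 0.77, 0.81 and 1.30 for +/1013 (edgeR adjusted p = 0.323, 0.455 and 0.249). The median log2 value of the list was 0.38 for +/1013 and 0.75 for 1013/1013, where that of all genes was -0.11 and -0.23. Cebpd was at 134 CPM in WT, 410 CPM in +/1013 and 543 CPM in 1013/1013 SSCs (log2 1.59 and 2.02). It was picked as the gene most like Serpina3n within cell types in these same libraries. A likeness to Serpina3n between genotypes is thus part of that choice, and its values are a description.

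Glucocorticoid response genes were tested because of the shared receptor core. In SSCs against OPCs 4 were called higher and 1 lower in WT, 1 and 1 in +/1013 and 2 and 1 in 1013/1013, of 14 tested. Of all 20238 genes tested, 5.55, 6.44 and 6.94% were called higher and 1185, 1218 and 1238 genes lower. Tsc22d3, or GILZ, was higher in every genotype (log2 1.57, 1.26 and 1.07) and Pdk4 lower (-2.08, -1.93 and -1.50). In WT the receptor Nr3c1 (1.09), Fkbp5 (1.28) and Dusp1 (1.22) were also higher, and in 1013/1013 Angptl4 (2.23). Of 25 alternatives, Nr3c1 was called in 16, Fkbp5 in 19 and Dusp1 in 11, and each was lost without some single WT library. With the replicate block Dusp1 was not called (log2 1.27, edgeR adjusted p = 0.0625), and without the 3 leukocyte-rich libraries its log2 value was 0.77. Angptl4 was lost without OPC 1013/1013 replicate 3 or SSC 1013/1013 replicate 1, Tsc22d3 in 1013/1013 without OPC 1013/1013 replicate 2 or 3 or SSC 1013/1013 replicate 2, and Pdk4 in 1013/1013 without the last. Within SSCs, Tsc22d3 was at 312, 291 and 302 CPM in WT, +/1013 and 1013/1013. The 14 genes of the list went both ways there: log2 values against WT ran from -2.01 to 1.09 for +/1013 and from -1.89 to 2.22 for 1013/1013, with 8 above 0 in each. Between SSC genotypes 0 were called by edgeR, 2 and 5 had an unadjusted p under 0.05, and DESeq2 called 2 and 3. The most abundant, Dusp1, Sgk1 and Errfi1, had log2 values of -0.18, 0.29 and 0.62 for +/1013 (edgeR adjusted p = 0.878, 0.880 and 0.720). Between OPC genotypes edgeR called no gene of the other serpins or of the protease, IL-6, acute phase and glucocorticoid lists. At most 2 of any list had an unadjusted p under 0.05 there, and DESeq2 called 1, among the acute phase genes in +/1013 against WT.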

How the data were processed

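Poly(A) RNA of sorted pools was amplified by the authors with SMART-Seq v4 (12 PCR cycles) and made into Nextera XT libraries, which do not mark strand. Per the labels and the study's methods, reads under 50 bases were removed, the rest aligned to mm10 with STAR and counted per gene with HTSeq; versions, counting settings and the annotation release were not given in the sources used here. The deposited files hold raw counts per Ensembl gene, 1 file per library. Entries for reads outside genes (1.15 to 4.15% over the libraries), ambiguous reads (1.87 to 3.93%) and reads aligned to several places (5.10 to 10.4%) were left out of library sizes.

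Identifiers were matched without version to a GENCODE M21 table (55154 of 55335), and exon lengths were taken from it. edgeR 4.0.16 in R 4.3.3 (TMM, filterByExpr, glmQLFit with legacy deviances, glmQLFTest) was fitted to OPCs (9 libraries, 16207 genes), SSCs (8 libraries, 17659 genes) and all 17 libraries (20238 genes; cell type contrasts and differences of effects), with Benjamini-Hochberg adjustment over all genes tested, and calls needed an adjusted p under 0.05 and 1.5-fold. The study used DESeq2, run here (1.42.0) as an alternative. Other alternatives were DESeq2 size factors, bias-adjusted deviances, filters, the replicate number as a block, fewer or more groups in the fit and each library left out. The same fit without the fold threshold was also counted as an alternative, and no call can be lost there. Leaving out the 3 leukocyte-rich libraries, and repeating the alternatives for called listed genes, were chosen after seeing the data. The scripts were tested on simulated data. Sequences were aligned with MAFFT 7.526.

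All 7 members and the gene lists were chosen with earlier results of these data known. Of each list the text names every gene called in a comparison or, where none or more than 5 were called, the 3 with the highest mean CPM (for SSC genotypes and cell types, as OPC genotypes are given by counts). Cebpd and Tsc22d3 within SSCs, Il6 outside 1013/1013, Il11ra1 and Lifr in WT and +/1013 and Serpina1d were named after their values were seen. So were Il6ra, Osmr, Stat3 and Pias3. Replicate numbers met the criterion for pairs (every correlation over 0.1 in 3 or more pairs) between WT OPCs and WT SSCs (0.135, 0.246 and 0.402) and between +/1013 and 1013/1013 OPCs (0.168, 0.129 and 0.227), and in no other comparison; the labels give no shared source. P-values measure the spread between pools, and limits from counts cover counting error only. One further gene list is not reported here.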

Additional observations from a re-analysis of the deposited data

Results flagged for a closer look

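Serpina3c is listed for a fitted difference between the cell types. Since it was selected on these levels, the values are a description. The log2 effect of the allele in SSCs minus that in OPCs was -7.05 for +/1013 and -8.01 for 1013/1013 (called lower by edgeR's quasi-likelihood test in the fit of all 17 libraries, where 0.0148% and 0.0346% of genes were). It compares 3.86-fold and 4.10-fold in SSCs with a WT OPC group in which all 3 libraries had 0 counts of Serpina3c. The call held in 2 of 24 alternatives for +/1013 and in 17 of 24 for 1013/1013, counting the setting without a fold threshold, where it cannot be lost.

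Ctsl differed between the cell types in the effect of 1013/1013, by a log2 of 2.05 (SE 0.316, edgeR adjusted p = 0.0230). The call was lost without OPC 1013/1013 replicate 1 or 2, OPC WT replicate 3, SSC 1013/1013 replicate 1 or any 1 of the SSC WT replicates, without the low-count filter and without the 3 leukocyte-rich libraries, where the adjusted p for Ctsl reached 0.238, and the log2 value stayed between 1.79 and 2.24.

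Serpina3f and Serpina3g differed in direction for +/1013. Every +/1013 OPC library was above the mean of the WT OPC libraries and every +/1013 SSC library below the mean of the WT SSC libraries, with a fitted difference of -2.93 for Serpina3f and -2.23 for Serpina3g in log2. That pattern was not tested as such, and edgeR called neither fitted difference. Without SSC WT replicate 3 the effect on Serpina3g in SSCs was 0.80.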

How the results depend on the processing

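Of 236 recounts of called members under other settings, 192 stayed within 1.5 times of the count reported, and no change of a called member reversed in 243 recomputed values. The 192 include recounts of 0 where the count reported was 0, as in every comparison of genotypes within a cell type. The tally also holds the setting without a fold threshold, where no call can be lost, and so says little about the calls made. With DESeq2 the count went from 0 to 1 for +/1013 and 1013/1013 against WT in OPCs, from 0 to 2 for both in SSCs, and from 1 to 2 for the difference of the 1013/1013 effects. With all 17 libraries in one fit it was 1 in both OPC comparisons with WT. With at least 10 counts required in every library, Serpina3g and Serpina3n passed in the cell type contrasts, and the SSC against OPC counts were 1, 1 and 1 in place of 3, 3 and 2, and 0 for both differences of effects. The difference of the +/1013 effects had 0 members with DESeq2 size factors, bias-adjusted deviances, no filter, the replicate block and without the leukocyte-rich libraries, and that of the 1013/1013 effects had 0 with bias-adjusted deviances and without those libraries. With each library left out in turn, members called ranged from 0 to 2 for SSC 1013/1013 against WT and from 0 to 1 against +/1013, both higher values without SSC 1013/1013 replicate 2, where the lone library is assumed to vary like the other groups and 2931 and 1812 genes were called. They ranged from 2 to 3, 2 to 3 and 2 to 2 for SSC against OPC, from 0 to 0 for the difference of the +/1013 effects and from 0 to 2 for the 1013/1013 effects. It was 0 without OPC WT replicate 3, OPC 1013/1013 replicate 1, SSC WT replicate 1 or 2, or SSC 1013/1013 replicate 1. Serpina3c in SSCs stayed between 1.65 and 2.35 (+/1013) and 1.65 and 2.44 (1013/1013), and Serpina3n between 1.18 and 2.01 and between 1.23 and 2.01.

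Replicate numbers did not pair the samples as a whole: same-numbered libraries correlated from -0.392 to 0.417, over 0.1 in 12 of 40 pairs and in 8 of 16 within a cell type. In the 2 comparisons whose 3 pairs were all over 0.1, the block called 2 members in place of 3 and 2042 genes in place of 2308 between WT SSCs and WT OPCs, and 0 members and 0 genes, as without it, between 1013/1013 and +/1013 OPCs, where Serpina3f moved from -0.49 to -3.25. Beside Serpina3m and Dusp1 in WT, it changed no call of a named gene in these 2. The replicate block left 0 genes called in SSC +/1013 against WT. Over all genes, DESeq2 called 1302 in place of 13 there, 1708 in place of 0 for 1013/1013, 58 and 42 in place of 0 and 1 in OPCs, 437 and 1142 in place of 17 and 31 for the differences of effects, and 3833, 4282 and 4772 in place of 2308, 2521 and 2642 between cell types. One fit of all 17 libraries gave 145 and 212 for the SSC comparisons, and at least 10 counts in every library gave 72 and 54. Of 64 calls of listed genes, 28 held under every alternative and none reversed. With 2 or 3 pools a group, members under about 1 CPM could not be compared.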
